A study of Mus musculus with 12 samples.

Results

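The livers compared here came from db/db mice, which lack a working leptin receptor and become obese and diabetic, after molecular hydrogen (H2) had been given in 2 ways. Of the 12 two-colour arrays of the series, 6 entered the comparison, 3 of 14 days of H2-water and 3 of 7 days of MgH2, a solid that releases H2 on contact with water. They were chosen by their labels alone. For every probe, the log2 ratio of the H2 channel (Cy5) to its control channel (Cy3) on each H2-water array was set against the same ratio on the MgH2 arrays. Positive differences therefore mean a higher H2-over-control ratio with H2-water than with MgH2.

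All mice were male db/db mice labelled as 8 weeks old, fed ad libitum, and each channel held pooled RNA of several livers, a different pool on each array. The H2-water group drank water with H2 dissolved to saturation (0.8 mM) for 14 days, and its control group drank the same water after the gas had been removed. The MgH2 group was gavaged once a day for 7 days, at 0.9 mg/kg per the labels, and its control group received Mg(OH)2 in the same way. The study's methods state a higher dose of MgH2, whereas a legend of the study gives the labels' dose for this time course. Agent, route, vehicle, duration, control, slide and software version all changed together between both groups, so their parts in any difference cannot be told apart, and no result below isolates the route or the time. The 3 H2-water arrays shared a slide, MgH2 replicates 1 and 2 shared another slide with 3-day arrays, and MgH2 replicate 3 lay on a slide without other arrays of the series. In bulk liver, fewer cells of a type and less RNA per cell cannot be told apart.

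The liver makes fatty acids from sugar through acetyl-CoA carboxylase and fatty acid synthase, under the transcription factors SREBP-1c (Srebf1) and ChREBP (Mlxipl), and makes cholesterol through the mevalonate pathway under SREBP-2. It burns fatty acids in mitochondria and peroxisomes under the nuclear receptor PPAR alpha (Ppara) and its coactivator PGC-1 alpha (Ppargc1a). In the fed state the synthetic genes dominate, and in fasting gluconeogenic and oxidative genes do. db/db livers are known for high lipid synthesis and steatosis.

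Of 39429 non-control probes, 18689 (representing 11707 named genes, each read from its brightest probe) were tested, because Cy3 and Cy5 both stood well above background on each of the 6 arrays. A further 60 probes (0.32% of those above background) were left out because a spot carried an outlier flag. Spots above background in Cy3 and in Cy5 made up 51.8% to 56.5% of each array of these groups, and no spot was marked as saturated. Ratios of replicate arrays correlated over these probes with r of 0.32 to 0.59 among H2-water arrays and 0.48 to 0.64 among MgH2 arrays. Across the tested probes the mean ratios of both groups correlated with r = 0.31, a description over probes that share arrays and dyes. Hepatocyte markers were well above background on all 6 arrays, all 8 of them, whereas none of the 4 muscle markers was well above background on any.

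The responses to H2-water and to MgH2 differed for 858 of 11707 genes (7.33% called at an adjusted p under 0.05 by limma), 459 of them higher with H2-water (3.92%) and 399 lower (3.41%). Most of these genes also differed from 0 with MgH2, but MgH2 had more such genes in all. Of the 858 genes, 638 (74.4%) differed from 0 with MgH2 alone and 103 (12.0%) with H2-water alone. Over all genes tested, 32.3% differed from 0 with MgH2 and 11.6% with H2-water, genes called in both included. The tests against 0 share their group means with the difference, so this split is no independent evidence. In 41 (4.78%) both treatments differed from 0 in opposite directions, in 58 (6.76%) in the same direction, and in 18 (2.1%) neither did. The mean ratios had opposite signs for 576 of the 858 genes (67.1%). At the level of probes, 1212 of 18689 were called (6.49%), 649 higher (3.47%) and 563 lower (3.01%), while 4579 (24.5%) had an unadjusted p under 0.05. All 1212 called probes had groups of arrays that did not overlap, but 5969 probes (31.9%) and 3984 genes (34.0%) did not overlap in all. The differences were moderate in size. The called probes had a median absolute difference of 0.39 on the log2 scale (1.31-fold) and 51 of them (4.21%) exceeded 2-fold, beside a median half-width of the 95% confidence interval of 0.21 over all tested probes.

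The number of calls depended on single arrays. Without MgH2 replicate 3, 74 probes were called, and without H2-water replicate 2, 132. Leaving out H2-water replicate 1 or 3 gave 367 or 254, and leaving out MgH2 replicate 1 or 2 gave 672 or 789. A fit of the 6 arrays without the 1-day and 3-day MgH2 arrays, which otherwise add to the estimate of the spread, called 384. Of the 59 genes named by rule and called, 26, 14 and 22 kept the call without H2-water replicates 1, 2 and 3, and 41, 30 and 12 without MgH2 replicates 1, 2 and 3. All 16 alternative limma fits, the 6 left-out arrays included and the methods' t-test not, called 12 of them. They were Ly6d, Cyp39a1, Map3k6, Tceal5, Thbd, Eif4ebp3, Olig1, Mlxipl, Aldh3a2, Fabp1, Vnn1 and Fkbp5. All 59 kept their direction in each of these fits.

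**Figure D1:**
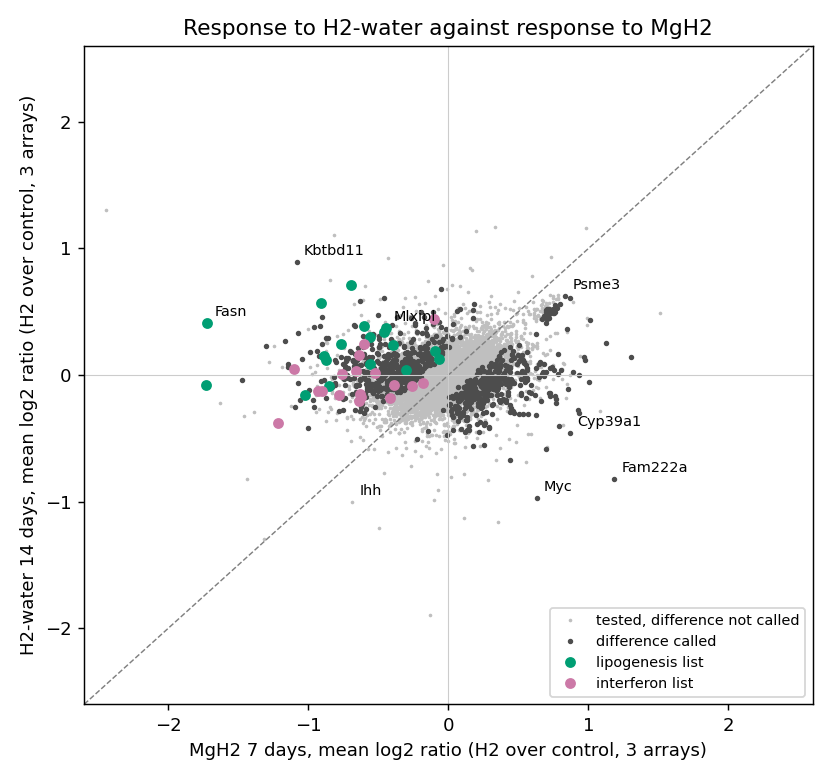
Mean log2 ratio (H2 over control) of each of 11707 tested genes with MgH2 for 7 days (x axis, 3 arrays) and with H2-water for 14 days (y axis, 3 arrays), dark points being genes whose difference was called and the dashed line marking equal responses. The lipogenesis genes and the interferon genes lie to the left of the vertical line, with MgH2 means below 0 in every case, and mostly near or above 0 with H2-water.

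Against 0, H2-water raised 604 genes (5.16%) and lowered 759 (6.48%), 11.6% of those tested in all, and MgH2 raised 1618 (13.8%) and lowered 2164 (18.5%), 32.3% in all. These counts also contain the dye bias of each probe, because control was in Cy3 and H2 in Cy5 on all arrays. A bias of that kind cancels only in the difference between both groups, as far as it was equal in both, which was not tested. The split into raised and lowered genes moved with the scaling of the arrays. At the level of probes it was 870 (4.66%) to 1339 (7.16%) for H2-water, 1144 to 873 with arrays centred on their median, 1094 to 903 with the deposited log ratios and 1595 to 844 with loess. For MgH2 the same splits were 2366 (12.7%) to 3382 (18.1%), 2838 to 2911, 2953 to 2799 and 2822 to 2501. Such counts do not rank the strength of both treatments.

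Of the 7 genes named here for the size of their difference toward higher ratios with H2-water, 3 belong to lipid metabolism (Fasn, Elovl6 and Scd3). Fasn, which encodes fatty acid synthase, had log2 ratios of 0.43, 0.63 and 0.16 on the H2-water arrays and of -0.84, -2.07 and -2.27 on the MgH2 arrays. All 3 H2-water arrays lay above 0 and all 3 MgH2 arrays below it, and MgH2 replicate 1 stood nearest to 0. The difference was 2.13 (SE 0.52, 4.38-fold, adjusted p = 0.0411). Over the 6 left-out arrays the adjusted p of Fasn ranged from 0.0372 to 0.142, and only the fit without MgH2 replicate 1 kept the call. Elovl6, which elongates the palmitate that Fasn makes, stayed at -0.10, -0.00017 and -0.13 with H2-water and fell to -1.27, -1.90 and -2.01 with MgH2, a difference of 1.65 (SE 0.36, adjusted p = 0.0304). Scd3, a stearoyl-CoA desaturase, differed by 1.53 (SE 0.28, adjusted p = 0.0186) on its brighter probe and by 0.20 (adjusted p = 0.57) on a dimmer one, so its probes disagree.

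Kbtbd11 stood at 0.98, 0.88 and 0.82 with H2-water and at -0.38, -1.33 and -1.54 with MgH2, a difference of 1.97 (SE 0.41, adjusted p = 0.0266), although its mean with H2-water did not pass the test against 0 (adjusted p = 0.0762). Ly6d, a surface protein of the Ly6 family, stood at -0.03, -0.09 and 0.003 with H2-water and fell with MgH2 at -1.43, -1.26 and -1.73, every array lying far below 0. Its difference of 1.44 (SE 0.15, adjusted p = 0.00395) was called in all 16 alternative limma fits. Gngt1, a G protein gamma subunit, and Rad51b differed by 1.40 (adjusted p = 0.0149) and 1.36 (adjusted p = 0.0246). Across alternatives that left out no array, these differences shrank to as little as 0.82 and 0.90.

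Toward lower ratios with H2-water the leading genes belonged to other groups. Fam222a had ratios of -0.67, -0.88 and -0.91 with H2-water and 1.29, 1.02 and 1.24 with MgH2, and the arrays of both groups lay far apart. The difference was -2.01 (SE 0.36, adjusted p = 0.0185). Myc, a growth-promoting transcription factor, had ratios of -0.74, -0.52 and -1.65 with H2-water, replicate 3 being the lowest, and of 0.41, 0.69 and 0.79 with MgH2. It fell with H2-water (adjusted p = 0.0106) and rose with MgH2 (adjusted p = 0.0288), a difference of -1.60 (SE 0.27, adjusted p = 0.0149) that was not called without MgH2 replicate 3 (adjusted p = 0.0661). The level of Myc in the control livers was itself 1.49 log2 units higher in the H2-water experiment than in the MgH2 experiment, on separate slides. The level in the H2 channel differed by -0.11, so on these levels the difference of ratios lay almost wholly in the control channel. What set the control levels apart was not tested.

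Cyp39a1, an oxysterol 7-alpha-hydroxylase of bile acid synthesis, had ratios of -0.27, -0.66 and -0.43 with H2-water and 0.77, 0.80 and 1.04 with MgH2. The difference of -1.33 (SE 0.14, adjusted p = 0.00374) was called in all 16 alternative limma fits. Map3k6, a stress-activated kinase, also moved both ways, with -0.54, -0.82 and -0.40 against 0.84, 0.68 and 0.57 and a difference of -1.28 (SE 0.12, adjusted p = 0.00285). Eif4ebp3, a binding protein that restrains cap-dependent translation, had -0.67, -0.22 and -0.33 against 0.68, 0.78 and 0.92, a difference of -1.20 (SE 0.15, adjusted p = 0.00743). For these 3 genes both means passed the test against 0, in opposite directions.

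Thbd, the thrombin receptor thrombomodulin, Inhbb, the activin beta B subunit, and Tceal5 rose with MgH2 to 0.92 ± 0.27, 1.31 ± 0.12 and 0.93 ± 0.38 (mean ± SD, n = 3 arrays). With H2-water their means were -0.28 ± 0.14, 0.14 ± 0.15 and -0.30 ± 0.20, none of which passed the test against 0. The differences were -1.20, -1.16 and -1.24 (adjusted p = 0.0111, 0.0158 and 0.0119). Olig1, a transcription factor of the bHLH family, took the opposite course and rose with H2-water at 0.55, 0.42 and 0.21 and fell with MgH2 at -0.28, -0.65 and -0.45. The level of the control channel (H2-water minus MgH2), which enters a difference of ratios with the opposite sign, was 0.99 for Fam222a, 1.19 for Cyp39a1, 0.88 for Tceal5 and -1.04 for Kbtbd11, beside 0.20 over all genes. The H2 channel of Cyp39a1 differed by -0.14. What set these control levels apart, on separate slides, was not tested. Some of the leading lower genes were dim. The mean scaled signal (log2) was -0.72 for Fam222a, -0.90 for Myc, -0.63 for Map3k6 and -0.47 for Tceal5. The median over all genes tested was 2.44. Across alternatives that left out no array, the differences of these genes, in the same order, shrank to as little as -0.92, -0.85, -0.49 and -0.50. Those of Cyp39a1 and Eif4ebp3 stayed at -1.23 and -1.11 or beyond.

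Genes called against 0 in both groups in the same direction numbered 751 (6.41% of the genes tested), 367 of them higher (3.13%) and 384 lower (3.28%). They were 55.1% of the 1363 genes called with H2-water and 19.9% of the 3782 called with MgH2, and 41 genes (0.35%) were called in opposite directions. Of the 751 shared genes, 58 (7.72%) also differed between both treatments. The split of shared probes was 528 higher (2.83%) to 696 lower (3.72%), and it turned to 689 to 448 with the deposited log ratios, 701 to 450 with median centring and 869 to 411 with loess. Dye bias can add to such genes in both groups, and its part in these counts was not tested.

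The highest shared ratios were those of Med13, a Mediator kinase module subunit, Rdh1, a retinol dehydrogenase, Psme3, the proteasome activator gamma, and Luc7l2, a splicing factor. Psme3 had ratios of 0.65, 0.59 and 0.63 with H2-water and 0.79, 0.79 and 0.92 with MgH2. Luc7l2 had 0.63, 0.59 and 0.62 and 0.89, 0.88 and 0.82 on its brighter probe, while a dimmer probe of the gene had means of -0.13 and 0.01, so its probes disagree. These ratios hardly varied between arrays. After 1 and 3 days of MgH2, Psme3 stood at 0.78 and 0.82, and Luc7l2 at 0.75 and 0.85. Both genes were also called in the difference, by -0.21 (adjusted p = 0.0481) and -0.25 (adjusted p = 0.0289), and neither call held after any single array was left out. Med13 and Rdh1 had means of 0.63 ± 0.05 and 0.63 ± 0.03 with H2-water and 0.72 ± 0.30 and 0.75 ± 0.15 with MgH2 (± SD, n = 3). Their differences of -0.09 (95% confidence interval -0.40 to 0.22) and -0.12 (-0.39 to 0.16) were not called, and both turned to positive and called values with normexp background correction and loess (0.33 and 0.40). The control channel of these probes was 3.86 and 4.69 log2 units brighter in the H2-water experiment, the part of which was not tested.

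Psme3 and Luc7l2 belonged to a compact cloud of genes in the plot of group means, which was singled out after its values were seen. With bounds of a mean above 0.6 with MgH2 and above 0.4 with H2-water it held 87 genes (125 probes), while 15 probes passed the same bounds below 0. These genes had a median ratio of 0.64, 0.70 and 0.70 after 1, 3 and 7 days of MgH2 and of 0.51 with H2-water. Their signal was bright, at a median of 7.59 (log2 of the scaled signal) beside 2.44 over all genes tested, and their SD between H2-water arrays had a median of 0.03, beside 0.08 over all genes. The other tested probes of these genes, 28 probes of 22 genes, had medians of 0.05 with MgH2 and -0.03 with H2-water, so they did not share the rise. The cloud made up 82 of the 367 shared higher genes and 29 of the 44 of those that also differed between treatments, all 29 lower with H2-water. All arrays had the same dye layout, but slide and software version differed between both groups. The part of a dye bias of single probes in this cloud was not tested.

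Among shared lower genes, Ihh, the Indian hedgehog ligand, had ratios of -0.74, -1.43 and -0.83 with H2-water and -1.00, -0.48 and -0.58 with MgH2, with overlapping groups and a difference of -0.31 (95% confidence interval -0.87 to 0.25, adjusted p = 0.49). Erc1, a scaffold of the presynaptic active zone and of NF-kappa-B signalling, had means of -0.59 ± 0.15 (SD, n = 3) and -0.57 ± 0.13 (SD, n = 3). Clmp, an adhesion molecule of tight junctions, had -0.59 ± 0.08 and -0.53 ± 0.28, and Arid3a, a DNA-binding protein, -0.52 ± 0.08 and -0.69 ± 0.20. For the last 3 genes the confidence intervals of the difference were -0.21 to 0.18, -0.37 to 0.25 and -0.27 to 0.62. Ihh, Erc1, Clmp and Arid3a were all dim, with mean scaled signals (log2) of 0.13, -0.14, -1.25 and -0.72. The median over all genes tested was 2.44. Still dimmer probes of Erc1 and Arid3a stood nearer to 0, with means of -0.03 and -0.20 for Erc1 and of -0.05 and -0.29 for Arid3a.

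**Figure D2:**
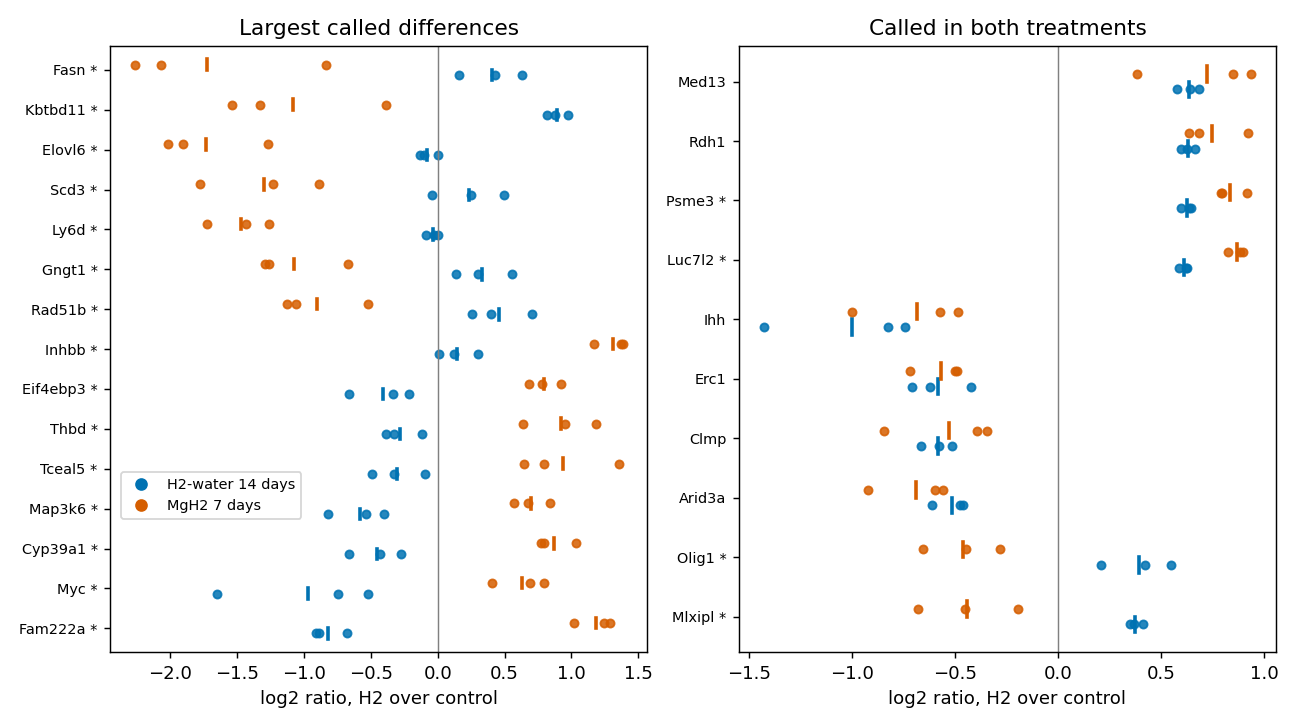
Log2 ratio (H2 over control, x axis) of each array for 15 genes of the largest called differences (left) and for genes called in both treatments (right), points being arrays, bars group means and asterisks called differences. Genes on the left were chosen among those whose groups of arrays do not overlap. On the right, where this was not required, the groups overlap for Med13, Rdh1, Ihh, Erc1, Clmp and Arid3a.

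Lipogenesis had the largest median difference among the pathway lists. All 18 tested members of 20 listed had a higher ratio with H2-water, 9 of them called higher and none lower (3.92% and 3.41% of all genes). The median difference was 0.86, beside -0.002 over all genes. The list median was 0.23, 0.27 and 0.15 on the H2-water arrays and -0.27, -0.77 and -0.95 on the MgH2 arrays. Against 0, 12 members were called lower with MgH2 (18.5% of all genes) and 2 higher with H2-water (5.16%). The called count was 5 in the fit of the 6 arrays alone, 5, 2 and 4 without H2-water replicates 1, 2 and 3, and 8, 4 and 2 without MgH2 replicates 1, 2 and 3, whereas the median stayed between 0.76 and 0.99 over these 7 fits.

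Both master regulators differed. Srebf1 had ratios of 0.12, 0.27 and 0.04 with H2-water and -0.79, -0.81 and -1.07 with MgH2, a difference of 1.04 (SE 0.17, adjusted p = 0.0149). Mlxipl had 0.36, 0.41 and 0.35 and -0.45, -0.19 and -0.68, higher than 0 with H2-water (adjusted p = 0.0142) and lower with MgH2 (adjusted p = 0.00238). Its difference of 0.82 (SE 0.11, adjusted p = 0.0104) was called in all 16 alternative limma fits. Among the enzymes, Acaca and Acacb, the acetyl-CoA carboxylases, differed by 0.99 (adjusted p = 0.0373) and 0.77 (adjusted p = 0.0138). The dimmer probes of Acaca differed by 0.84 (adjusted p = 0.104) and 0.94 (adjusted p = 0.0456), in the same direction. Elovl5, which elongates polyunsaturated fatty acids, rose with H2-water to 0.34 ± 0.08 and fell with MgH2 to -0.46 ± 0.21.

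Pklr, the liver pyruvate kinase that ChREBP is known to drive, and Me1, the malic enzyme that supplies NADPH, completed the 9 called genes together with Fasn and Elovl6. Their differences were 0.86 (adjusted p = 0.0335) and 0.86 (adjusted p = 0.031). Scd2, Aacs, Gpam and Thrsp had differences of 1.48, 1.40, 1.01 and 0.99 that were not called. Their MgH2 arrays had SDs of 0.96, 0.42, 0.63 and 0.68. Scd1, the main stearoyl-CoA desaturase of liver, was bright on all 6 arrays but had lost H2-water replicate 1 to an outlier flag and stood outside the counts above. On its 5 unflagged arrays it had ratios of 0.64 and 0.12 with H2-water and of -0.80, -1.11 and -1.70 with MgH2. A fit with such probes added, chosen after seeing the data, called it at 1.58 (SE 0.31, adjusted p = 0.0253). Pnpla3 was not well above background on the MgH2 arrays and was not tested. After 1 day of MgH2 the means of Fasn, Elovl6 and Srebf1 were -0.08, -0.25 and 0.17, and after 3 days they were -1.76, -1.42 and -0.63. The 3-day means lay nearer to those at 7 days than the 1-day means did. The control livers of both experiments (H2-water minus MgH2) differed in the median level of the list by -0.31 log2 units, beside 0.20 over all genes, and its part in the difference was not tested.

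Cholesterol genes showed a smaller gap of the same sign. Of 24 tested, 23 had a higher ratio with H2-water, 4 were called higher and none lower (3.92% and 3.41% of all genes). The median difference was 0.37, beside -0.002 over all genes, with list medians of 0.23 with H2-water and -0.18 with MgH2. Mvd, mevalonate diphosphate decarboxylase, had ratios of 0.32, 0.22 and 0.60 and -0.55, -0.95 and -1.37, a difference of 1.34 (SE 0.24, adjusted p = 0.0189). Stard4, which carries cholesterol between membranes, and Sc5d, lathosterol oxidase, differed by 0.71 (adjusted p = 0.0369) and 0.63 (adjusted p = 0.025). A dimmer Stard4 probe gave 0.55 (adjusted p = 0.00758). The regulator Srebf2 was the exception in sign, at -0.14 (95% confidence interval -0.45 to 0.17). None of the 4 calls was made without H2-water replicate 2 or 3 or MgH2 replicate 3. The fit of the 6 arrays made 2 of them, the fit without H2-water replicate 1 made 2, and the fits without MgH2 replicates 1 and 2 made 4 and 3.

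**Figure D3:**
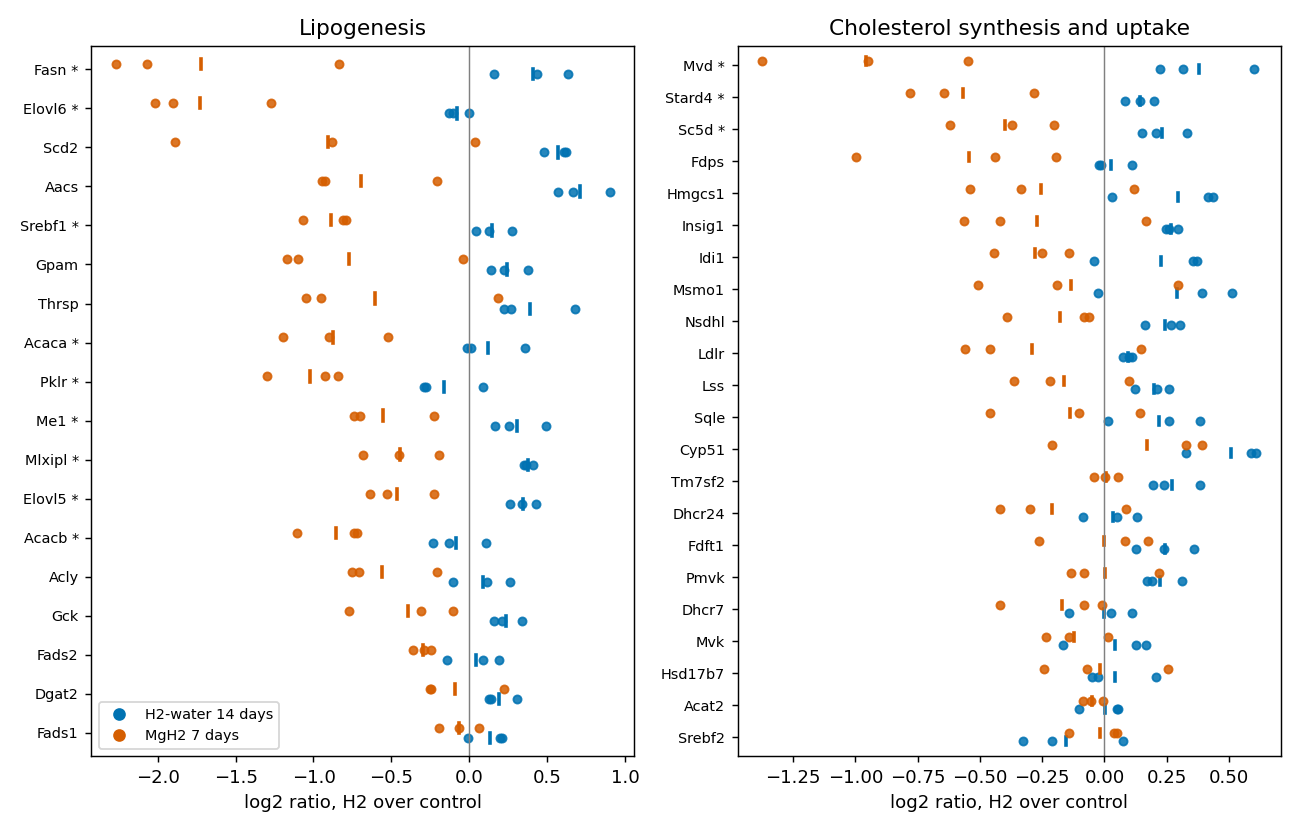
Log2 ratio (H2 over control, x axis) of each array for the 18 tested lipogenesis genes (left) and 22 of the 24 tested cholesterol genes (right), ordered by difference, with points for arrays, bars for group means and asterisks for called differences. The MgH2 points lie left of the H2-water points for the upper genes of both panels and mix with them for the lower ones.

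ChREBP, SREBP-1c and clock factors are known to bind E-boxes, so promoters were searched for CACGTG, a sequence that equals its own reverse complement. The 300-base windows run from 250 bases before to 50 bases after a start site in RefSeq (build GRCm38.p6). The letters occurred in 2349 of 32851 windows (7.15%), in 9.79% of the windows of genes tested, in 2 of 21 windows of lipogenesis genes and in 4 of 20 of cholesterol genes. Windows of a gene can overlap. The D-box TTATGTAA, searched on both strands and not overlapping the E-box, occurred in 0.938% of all windows, and a perfect PPAR direct repeat (both strands) in 13 windows, none of them of these lists. Windows were available for 15 lipogenesis genes, all 9 called ones among them, and for 17 cholesterol genes, with only 2 of the 4 called ones. The windows of Mlxipl and Elovl5, the called lipogenesis genes with a match, and of Sc5d, the called cholesterol gene with one, are shown in the direction of transcription with the E-box in capitals. Mlxipl lies at chr5:135089640-135089939 on the plus strand, Elovl5 at chr9:77917115-77917414 on the plus strand and Sc5d at chr9:42264251-42264550 on the minus strand. The E-box begins at positions -98, -161 and -98 relative to the start site. A match describes letters only and says nothing of binding in these livers.
Mlxipl: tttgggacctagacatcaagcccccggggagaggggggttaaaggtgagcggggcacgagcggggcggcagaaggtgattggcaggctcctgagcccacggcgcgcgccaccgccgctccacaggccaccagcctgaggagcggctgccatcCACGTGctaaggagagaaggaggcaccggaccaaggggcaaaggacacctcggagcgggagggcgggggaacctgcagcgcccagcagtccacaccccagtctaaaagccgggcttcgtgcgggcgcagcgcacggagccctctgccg
Elovl5: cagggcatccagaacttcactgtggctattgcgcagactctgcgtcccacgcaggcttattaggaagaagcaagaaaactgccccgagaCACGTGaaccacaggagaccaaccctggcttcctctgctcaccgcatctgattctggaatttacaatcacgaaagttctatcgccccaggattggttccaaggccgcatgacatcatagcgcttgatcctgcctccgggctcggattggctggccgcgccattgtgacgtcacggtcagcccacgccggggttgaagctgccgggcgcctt
Sc5d: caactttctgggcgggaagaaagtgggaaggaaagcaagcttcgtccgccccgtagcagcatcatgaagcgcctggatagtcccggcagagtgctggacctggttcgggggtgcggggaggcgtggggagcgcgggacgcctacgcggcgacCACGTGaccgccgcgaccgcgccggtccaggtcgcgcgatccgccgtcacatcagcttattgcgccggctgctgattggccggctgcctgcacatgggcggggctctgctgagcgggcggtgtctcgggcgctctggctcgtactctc

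Fatty acid oxidation did not follow as a block. The 18 mitochondrial oxidation genes tested included no called difference in either direction, beside 7.33% of all genes, and had a median of 0.01. At that share a list of this size can hold no call. Cpt1a, the carnitine palmitoyltransferase that admits fatty acids to mitochondria, rose in both treatments, with 0.25, 0.14 and 0.35 (adjusted p = 0.00781) and 0.40, 0.34 and 0.45 (adjusted p = 0.000246). The difference was -0.15 (95% confidence interval -0.29 to -0.01, adjusted p = 0.174). A dimmer Cpt1a probe had means of -0.08 and 0.08, so the rise rests on the brighter probe. The 23 oxidative phosphorylation genes had no call either (beside 7.33% of all genes) and a median of 0.03.

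Of 14 peroxisomal oxidation genes tested, 3 were called higher with H2-water and none lower (3.92% and 3.41% of all genes), with a median of 0.13. Ehhadh, the peroxisomal bifunctional enzyme, had ratios of 0.30, 0.28 and 0.27 with H2-water and 0.02, -0.06 and -0.06 with MgH2, that is, a tight rise with H2-water (adjusted p = 0.00501) and values around 0 with MgH2. Acaa1b, a thiolase of the last step, differed by 0.78 (SE 0.14, adjusted p = 0.0193), and its near-identical neighbour Acaa1a by 0.30 (adjusted p = 0.0701). Probes of this pair may share target sequence. Leaving out any H2-water array or MgH2 replicate 3 left no call, leaving out MgH2 replicate 2 gave 1 and leaving out MgH2 replicate 1 gave 4.

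Of 12 fatty acid metabolism genes that the study examined, 3 were called in the difference, all higher with H2-water (3.92% of all genes). These genes were chosen on arrays of this series, so their direction with H2-water is no independent evidence. Acaa1b was among them, as was Aldh3a2, the fatty aldehyde dehydrogenase, with 0.36, 0.21 and 0.27 against -0.24, -0.31 and -0.21. Its difference of 0.53 (SE 0.06, adjusted p = 0.00699) was called in all 16 alternative limma fits. In contrast, 4 of the 12 rose in both treatments, namely Cpt1a, Aldh1a1, Aldh1l1 and Cyp4a32. Aldh1a1, a retinaldehyde dehydrogenase, had 0.34, 0.20 and 0.26 and 0.29, 0.25 and 0.24, a difference of 0.01 (95% confidence interval -0.11 to 0.13). Aldh1l1, of folate metabolism, differed by 0.02 (-0.22 to 0.27), and the fatty acid omega-hydroxylases Cyp4a10, Cyp4a31 and Cyp4a32 by 0.005 (-0.27 to 0.28), 0.05 (-0.22 to 0.32) and 0.02 (-0.17 to 0.21). The Cyp4a genes are close paralogs whose probes may cross-hybridise. Eci1 and Eci2, enoyl-CoA isomerases, differed by 0.15 (0.01 to 0.29) and -0.07 (-0.23 to 0.09). The count of 3 was 2 in the fit of the 6 arrays, 4 without MgH2 replicate 1, 2 without MgH2 replicate 2, and 1 without each of the other 4 arrays.

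Among regulators, Ppargc1a had ratios of 0.44, -0.61 and 0.07 with H2-water, which lay on both sides of 0, and 0.97, 0.56 and 0.71 with MgH2. It was higher than 0 with MgH2 (adjusted p = 0.00817) but the difference of -0.78 (95% confidence interval -1.31 to -0.25) was not called on its brighter probe (adjusted p = 0.0774). A dimmer probe had means of -0.05 and 1.28 and its difference of -1.33 was called (adjusted p = 0.0335). Ppara differed by 0.43 (-0.07 to 0.92, adjusted p = 0.27), with 0.22, 0.25 and 0.30 and 0.15, -0.30 and -0.35. Nrf1, nuclear respiratory factor 1, was the 1 gene of 15 tested regulators that was called (lower, beside 3.41% of all genes). Its means were 0.17 ± 0.06 and 0.46 ± 0.06, a difference of -0.29 (adjusted p = 0.0185). Without H2-water replicate 2 or 3 or MgH2 replicate 3 it was not called, its adjusted p reaching 0.0713. Fgf21, the hepatokine of fasting, was well above background on 1 of 3 H2-water arrays and on 0 of 3 MgH2 arrays, so no fold is given.

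A further list of PPAR alpha targets shares Aldh3a2 and the Cyp4a genes with the fatty acid genes above. Of its 27 tested members, 5, Aldh3a2 among them, were called higher with H2-water and 1 lower (3.92% and 3.41% of all genes), with a median of 0.05. Vnn1, vanin 1, had ratios of 0.53, 0.36 and 0.48 and -0.21, -0.50 and -0.39, opposite in sign on all arrays, and differed by 0.82 (SE 0.08, adjusted p = 0.00256). Fabp1, the liver fatty acid binding protein, had -0.02, 0.39 and 0.13 and -0.65, -0.79 and -0.56, a difference of 0.83 (SE 0.10, adjusted p = 0.00758). Both calls were made in all 16 alternative limma fits. Ucp2, a mitochondrial carrier, and Plin2, the main coat protein of hepatic lipid droplets, differed by 0.59 (adjusted p = 0.0335) and 0.54 (adjusted p = 0.0158). Plin5, the coat protein that ties droplets to mitochondria, went the other way, with -0.11, -0.13 and -0.10 against 0.81, 0.82 and 0.93 and a difference of -0.97 (SE 0.16, adjusted p = 0.0148). Without H2-water replicate 2 or MgH2 replicate 3, 3 and 3 of the 6 calls were made.

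Droplet and triglyceride genes, a list that also holds Plin2 and Plin5, had 3 called higher and 2 lower of 18 tested (3.92% and 3.41% of all genes) and a median of 0.16. Mogat1 and Fitm1, which make and store triglyceride, differed by 1.05 (adjusted p = 0.0431) and 0.87 (adjusted p = 0.0432). Pnpla2, the adipose triglyceride lipase, differed by -0.40 (adjusted p = 0.0232), having risen with MgH2 to 0.52 ± 0.12. None of the 5 calls was made without H2-water replicate 2 or MgH2 replicate 3, and without H2-water replicate 1 or 3 there were 2 and 1. Gpd1, glycerol-3-phosphate dehydrogenase, was the 1 called gene of 5 tested genes of glycerol use (higher, beside 3.92% of all genes). It differed by 0.43 (adjusted p = 0.0381) and was called among left-out arrays only without MgH2 replicate 1. MgH2 was given as a suspension in glycerol, and the study states that its Mg(OH)2 control was given in the same way. The part of the vehicle in this call was not tested.

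Pck1 and several amino acid genes had lower ratios with H2-water. Pck1, the gatekeeper of gluconeogenesis, fell with H2-water at -0.31, -0.70 and -0.24 (adjusted p = 0.00952) and rose with MgH2 at 0.27, 0.25 and 0.34 (adjusted p = 0.0198). The difference was -0.70 (SE 0.11, adjusted p = 0.0129), and without MgH2 replicate 3 its adjusted p was 0.0573. G6pc, glucose-6-phosphatase, had 0.05, -0.98 and -0.80 and -0.02, -0.39 and -0.01, with overlapping groups and an interval of -0.97 to 0.10 (adjusted p = 0.303). Of 15 gluconeogenic and fasting genes, 2 (Pck1 and Tat) were called lower and none higher (3.41% and 3.92% of all genes), with a median of -0.23. Without MgH2 replicate 3 there was no call, and without each of the other arrays there was 1. Among 19 urea cycle and amino acid genes 6 were called lower with H2-water and none higher (3.41% and 3.92% of all genes), with a median of -0.12.

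The 6 included Got1, aspartate aminotransferase, Tat, tyrosine aminotransferase, Tdo2, tryptophan dioxygenase, and Ass1 and Asl of the urea cycle. Got1 had ratios of 0.08, -0.41 and -0.10 and 0.82, 0.44 and 0.89, a difference of -0.86 (SE 0.20, adjusted p = 0.0337). Tat, Tdo2, Ass1 and Asl differed by -0.42, -0.35, -0.35 and -0.25 (adjusted p = 0.0431, 0.0245, 0.0173 and 0.0357). The count of 6 fell to 1, 0 and 0 without H2-water replicates 1, 2 and 3, to 3, 2 and 0 without MgH2 replicates 1, 2 and 3, and to 1 in the fit of the 6 arrays. Of the hepatocyte markers, 3 of 8 (Alb, Trf and Ahsg) were called lower with H2-water (3.41% of all genes), with a median of -0.28. Their summed signal stood at -0.09 to -0.02 log2 over control on the H2-water arrays and at 0.13 to 0.23 on the MgH2 arrays, and its part in the amino acid genes was not tested. The fit without MgH2 replicate 1 called 2 of these markers, and the fits without each of the other arrays called none.

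Fkbp5, a co-chaperone that glucocorticoids induce, had ratios of -0.23, -0.37 and 0.02 and 0.93, 0.73 and 0.65 and a difference of -0.96 (SE 0.14, adjusted p = 0.0111) that was called in all 16 alternative limma fits. The 14 glucocorticoid response genes had a median of -0.49, 13 of them with a negative difference. Fkbp5 and Tat were called lower and none higher (3.41% and 3.92% of all genes). Tat was called in no fit that left out an array. The list medians of both groups overlapped, at 0.09, -0.56 and -0.14 with H2-water and 0.51, 0.13 and 0.03 with MgH2. Hmox1, heme oxygenase 1, was the 1 called gene among 21 antioxidant genes (lower, beside 3.41% of all genes). It stayed at 0.0043, 0.16 and -0.04 with H2-water and rose with MgH2 at 0.79, 0.43 and 0.46, a difference of -0.52 (adjusted p = 0.0375), while its dimmer probe gave -0.32 (adjusted p = 0.118). Of the fits that left out 1 array, the one without MgH2 replicate 2 called Hmox1 and the other 5 did not. The antioxidant list had a median of -0.0044.

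Slc41a3, a mitochondrial magnesium exporter, was the 1 called gene of 12 magnesium transport genes (lower, beside 3.41% of all genes). Its ratios were -0.15, -0.12 and 0.31 against 0.64, 0.90 and 0.80, a difference of -0.77 (adjusted p = 0.0335). It was called without H2-water replicate 3 and not without any of the other 5 arrays. MgH2 and its Mg(OH)2 control both contain magnesium. Xbp1, a transcription factor of the unfolded protein response, differed by 0.45 (adjusted p = 0.0496) and was called in no fit that left out an array. The clock lists held no called gene in 16 tested (beside 7.33% of all genes), although Dbp, a clock output factor, had 1.12, 0.35 and 1.30 and -0.03, -0.57 and -0.68 and an interval of 0.46 to 2.24 (adjusted p = 0.071). The control level of Dbp differed by -2.27 and that of Arntl, the core clock gene Bmal1, by 2.02 log2 units (H2-water minus MgH2), the part of which was not tested. Also without a call, beside 7.33% of all genes, were the 18 proliferation genes, the 20 acute phase genes, the 13 bile acid genes, the 13 growth hormone genes, the 9 heat shock genes and the 9 ATF4 genes. Their medians were 0.33, 0.09, -0.08, 0.01, 0.08 and -0.13. Of 24 drug-metabolising genes, Cyp2c39 was called lower (3.41% of all genes), at -0.29 (adjusted p = 0.0354), and the list had a median of -0.21.

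**Figure D4:**
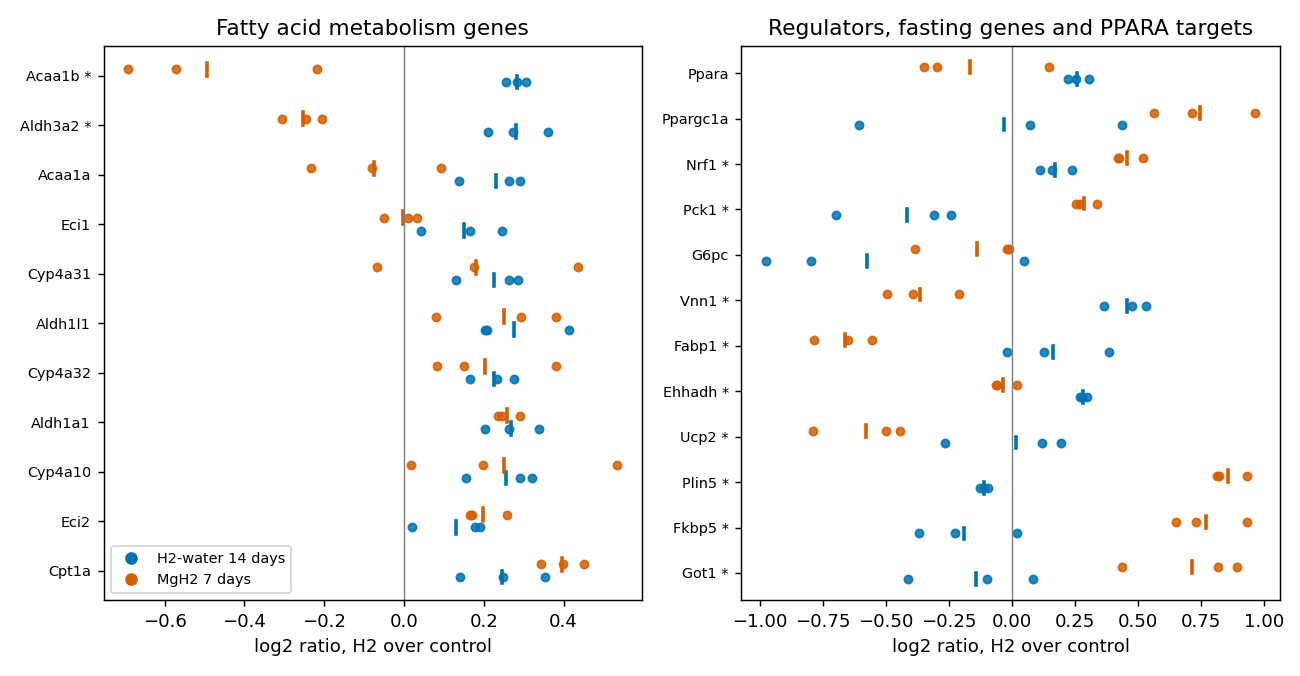
Log2 ratio (H2 over control, x axis) of each array for 11 of 12 fatty acid metabolism genes (left, ordered by difference) and for regulators, fasting genes and PPAR alpha targets (right), with points for arrays, bars for group means and asterisks for called differences. The H2-water points on the left lie between 0.02 and 0.41, while the MgH2 points run from -0.69 for Acaa1b to 0.54 for Cyp4a10.

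Interferon and antigen presentation genes had lower ratios with MgH2 than with H2-water. All 18 tested genes had a higher ratio with H2-water, with a median difference of 0.58, and 16 of them were called lower than 0 with MgH2 (18.5% of all genes) and none with H2-water (6.48%). The difference itself was called higher with H2-water for 2 (3.92% of all genes), Oas1a and Oasl1, which encode proteins of the antiviral OAS family. Oas1a had ratios of -0.44, 0.74 and -0.14 and -1.02, -0.87 and -1.42, a difference of 1.15 (SE 0.29, adjusted p = 0.0452), and a dimmer probe gave 0.94 (adjusted p = 0.0497). Oasl1 had -0.09, -0.01 and -0.27 and -0.66, -0.83 and -1.30, a difference of 0.81 (SE 0.18, adjusted p = 0.0305). Isg15 and Psmb9, an immunoproteasome subunit, were just beyond the threshold at 0.62 (adjusted p = 0.0524) and 0.54 (adjusted p = 0.0513). Of the 18 genes, 8 were called with normexp and loess, 5 without the filter on dim probes and 0 in the fit of the 6 arrays. There were 2, 0 and 0 calls without H2-water replicates 1, 2 and 3, and 1, 2 and 0 without MgH2 replicates 1, 2 and 3.

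Some markers of immune cells were called beside the interferon genes. Of 9 Kupffer cell markers, all tested, 3 (Clec4f, Cd5l and C1qa) were called higher with H2-water and none lower (3.92% and 3.41% of all genes). Their median difference was 0.38, made of -0.02 with H2-water and -0.48 with MgH2. Clec4f, the defining lectin of mouse Kupffer cells, had ratios of -0.05, 0.22 and -0.16 and -0.45, -0.38 and -0.60 (adjusted p = 0.0335). Summed over the markers, the signal of the H2 channel relative to the control channel was -0.21 to 0.20 (log2) on the H2-water arrays and -0.48 to -0.40 on the MgH2 arrays. Of 10 leukocyte markers 6 were tested. Ptprc (CD45) and S100a8 were called higher (3.92% of all genes), with differences of 0.72 (adjusted p = 0.0478) and 0.88 (adjusted p = 0.0261), and Cd3e lower (3.41% of all genes) at -0.22 (adjusted p = 0.0346). Across alternatives that left out no array, the differences of Ptprc and S100a8 shrank to as little as 0.16 and 0.48. Ptprc was called in no fit that left out an array. The summed leukocyte signal was -0.05 to 0.05 and -0.27 to -0.09 log2 over control, and Cd79a and Itgax were not well above background on all arrays. Stellate cell markers Col3a1 and Lrat, 2 of 5 tested, were called higher (3.92% of all genes) at 0.55 (adjusted p = 0.0189) and 0.53 (adjusted p = 0.0421), while the summed stellate signal was -0.20 to 0.09 and -0.22 to 0.10. The part of these cells in the interferon result was not tested.

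The calls among these markers also depended on single arrays. For Kupffer cell markers there were 0, 0 and 2 calls without H2-water replicates 1, 2 and 3, 0, 1 and 0 without MgH2 replicates 1, 2 and 3, and 0 in the fit of the 6 arrays. For leukocyte markers the counts in the same order were 0, 0, 1, 2, 1, 0 and 1, and for stellate cell markers 0, 0, 1, 2, 1, 0 and 0. Lyve1, an endothelial marker, was called lower with H2-water at -0.55 (adjusted p = 0.0356), 1 of 7 tested (3.41% of all genes). The 6 tested blood cell markers and the 3 tested pancreas markers held no call, nor did the 2 of bile duct (beside 7.33% of all genes). Of 4 adipocyte markers, Adipoq, Lep and Plin1 were not well above background on any of the 6 arrays. Cfd (adipsin), the remaining one, had 2.56, 0.35 and 1.01 with H2-water and -0.91, -3.47 and -2.95 with MgH2. The difference of 3.75 had an interval of 1.35 to 6.15 and was not called (adjusted p = 0.0664), and its control level differed by -2.65 log2 units.

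**Figure D5:**
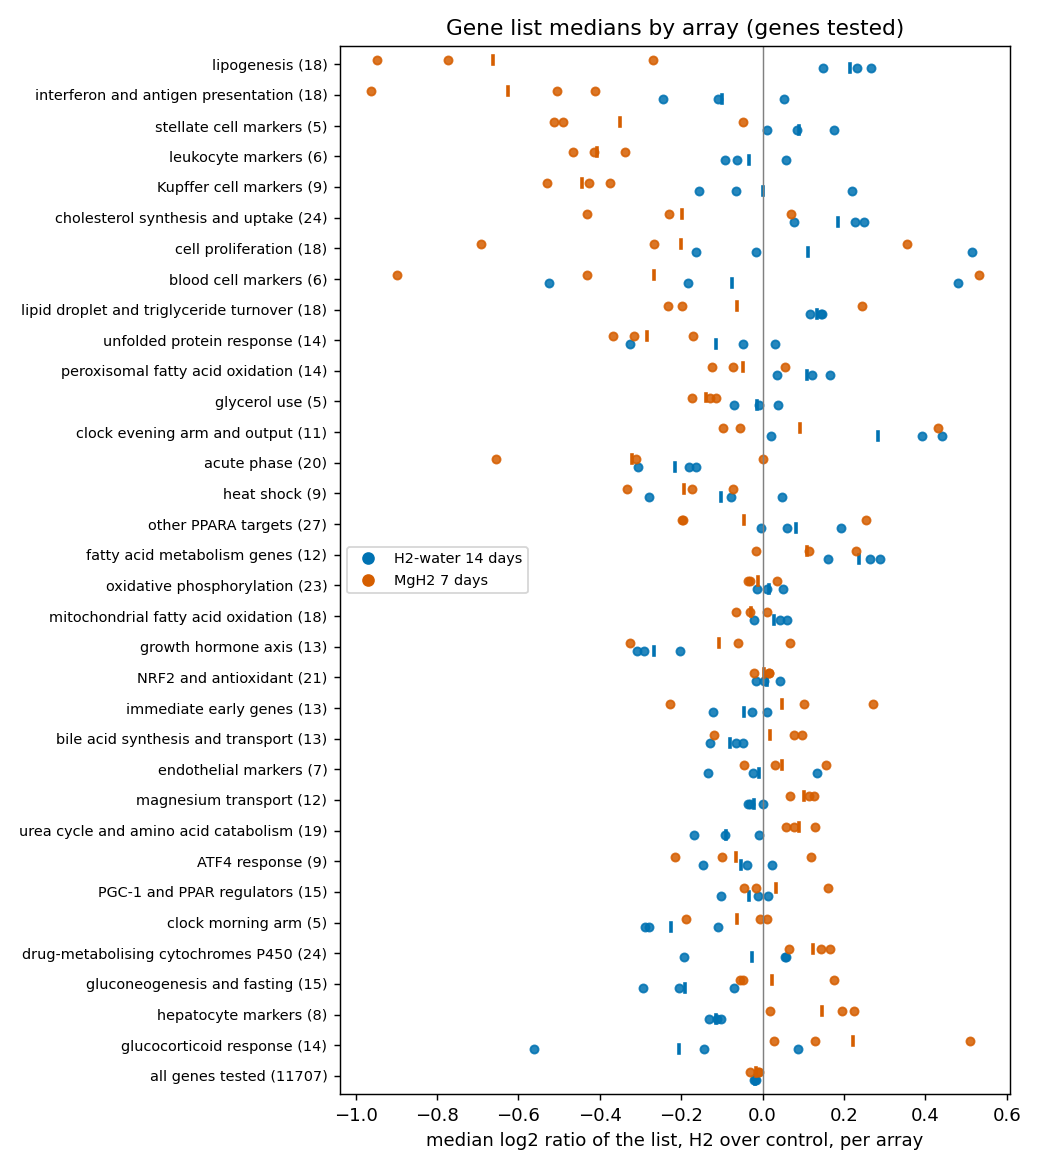
Median log2 ratio (H2 over control, x axis) of each gene list with at least 5 genes tested on each of the 6 arrays, with the number of genes tested in brackets, bars for the means of 3 arrays, and the lists ordered by their median difference. The lipogenesis medians of both groups do not overlap (0.15 to 0.27 against -0.95 to -0.27), and those of oxidative phosphorylation and of all genes tested lie close to 0 in both.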

How the data were processed

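Liver RNA was hybridised to 12 Agilent mouse arrays of 2 colours, 3 for each of 4 groups, with control RNA in Cy3 and RNA of H2-treated mice in Cy5 on all of them and no dye swap. The authors scanned the arrays and extracted spots with Agilent Feature Extraction (version 10.10.1 per the labels, 10.7.3.1 for the H2-water arrays and 10.10.1.1 for the MgH2 arrays per the file headers). The deposited files hold, for each spot, the processed signal intensity of both channels, background-subtracted and dye-normalized, a log10 ratio of Cy5 over Cy3, raw median intensities, and flags. A deposited value table holds a log2 ratio for each probe, which matched the log10 ratios of the scanner files after rescaling. The deposited p-value of each spot's ratio was not used, and an intensity carries no read depth, so precision rests on the number of arrays (3 a group).

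Each processed channel was divided by its total over non-control spots. Spots with a non-uniformity or population outlier flag were left out and spots of a probe were averaged. The 18689 of 39429 probes with Cy3 and Cy5 both well above background on each of the 6 arrays were tested on their log2 ratios with limma (version 3.58.1, R 4.3.3). A group-means fit over all 12 arrays gave a shared estimate of the spread (8 residual degrees of freedom) and the contrast of H2-water at 14 days minus MgH2 at 7 days, unpaired and two-sided. It treats the 12 arrays as independent. Whether MgH2 arrays of the same number share an error across days was not tested, and if they do, the degrees of freedom are overstated. For Fasn, replicate 1 was the highest MgH2 array at 1, 3 and 7 days (0.98, -1.05 and -0.84). Other genes were not counted for this. A call is a Benjamini-Hochberg adjusted p under 0.05 over all probes tested. Confidence intervals (95%) and standard errors come from this fit and are not adjusted for the number of probes. Tables and plots were made with Python 3.11.15, pandas 2.3.3, numpy 2.4.6 and matplotlib 3.10.9. Symbols came from RefSeq (GRCm38.p6) for 26787 probes (67.9%) and for 507 of 512 listed genes. A gene was read from its brightest tested probe. Levels of 1 channel compared between experiments are log2 of the scaled signal and come from separate slides.

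Named genes were the 8 largest called differences of each sign without overlap, the 4 highest and 4 lowest genes called against 0 in both groups, up to 6 called in opposite directions, the genes the study named, and up to 4 called members of each of 37 lists (27 of pathways or responses and 10 of cell type markers), or the largest difference where none was called. Some genes that the rule or the lists hold are not reported here by name, though they stay in counts and medians. Members and lists were chosen with earlier results of these data known, and counts of calls in the main lists were set beside the share over all genes. On simulated ratios of 18689 probes for this contrast, with 200 changed, the fit recovered 43.5%, 64.5% and 90.5% of changes of 1.33, 1.5 and 2-fold, with 4, 3 and 9 false calls. The simulated noise was normal and independent between probes and arrays, without an error shared by the probes of an array. These counts therefore do not measure the false calls in the real data. Alternatives covered the deposited log ratios, median centring, normexp (offset 50) with loess, the value table, the filters on dim and flagged spots, the arrays in the fit, the replicate number and the slide as blocks, each array left out, and the methods' t-test. Per the study's methods, the 3 arrays of a group held separate pools of mice.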

Additional observations from a re-analysis of the deposited data

Results flagged for a closer look

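For 30 of the 59 named genes whose difference was called by limma, all 3 H2-water arrays lay on one side of 0 and all 3 MgH2 arrays on the other. The genes were named partly for large differences and for calls in opposite directions, so this count is not a result about genes at large. Of all 858 called genes, 67.1% had group means of opposite sign, a looser criterion. Ratios on both sides of 0 also hold the dye bias of each probe. The difference is free of that bias only as far as it was equal in both groups, which was not tested. Groups of 3 arrays are too small to test a single array for standing apart.

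Of the largest differences toward higher ratios with H2-water, Fasn (2.13 on the log2 scale), Kbtbd11 (1.97), Gngt1 (1.40) and Rad51b (1.36) were of this kind. Toward lower ratios they were Fam222a (-2.01), Myc (-1.60), Cyp39a1 (-1.33), Map3k6 (-1.28), Tceal5 (-1.24), Thbd (-1.20) and Eif4ebp3 (-1.20). Olig1 (0.85), Mlxipl (0.82), Aldh3a2 (0.53), Pck1 (-0.70) and Vnn1 (0.82) were, like Myc, Cyp39a1, Map3k6 and Eif4ebp3, also called against 0 in opposite directions.

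Of lipid genes, Srebf1 (1.04), Mogat1 (1.05), Mvd (1.34), Stard4 (0.71), Sc5d (0.63), Fitm1 (0.87), Gpd1 (0.43) and Acaa1b (0.78) lay above 0 with H2-water and below it with MgH2, and Plin5 (-0.97) the other way. Of amino acid genes, Tat (-0.42) and Tdo2 (-0.35) lay below 0 with H2-water and above it with MgH2, as did Cyp2c39 (-0.29) and the hepatocyte marker Ahsg (-0.28), whereas the stellate cell marker Col3a1 (0.55) had the opposite signs.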

How the results depend on the processing

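The 1212 called probes (649 higher and 563 lower with H2-water) became 6617 (1016 and 5601) without the filter on dim probes, of 39366 tested, 384 (219 and 165) in the fit of the 6 arrays, and 2091 (1111 and 980) with slide as a random block (correlation -0.083). The methods' t-test called 4140 (2012 and 2128) before and 2 after Benjamini-Hochberg adjustment. With 1 array left out the count ran from 74 to 789 (40 to 419 higher, 34 to 394 lower). A fit with 1 array fewer or without the other groups has fewer degrees of freedom by construction, and other causes were not tested. With the replicate number as a block, 2458 probes were called (1358 and 1100). The numbers were not taken to pair these samples, because the labels give no shared batch and deviations of same-numbered arrays correlated with r of 0.28, 0.23 and 0.03, the last of them near 0. Every array did correlate best with its own number, a hint of pairing from the data and not from the design.

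Against 0, H2-water higher moved from 870 to 1595 with normexp and loess and 1338 with the block, and was 313 to 829 with 1 array left out. H2-water lower moved from 1339 to 873 with median centring, 844 with normexp and loess, 765 in the fit of the 6 arrays, 2200 with the block and 2097 with slide, and 318 to 1270. MgH2 higher (2366) ran from 1308 to 2258 and MgH2 lower (3382) from 2024 to 3234 with 1 array left out. Shared higher probes moved from 528 to 869 with normexp and loess, and 244 to 450. Shared lower probes moved from 696 to 448 with the deposited log ratios, 448 with the value table, 450 with centring, 411 with normexp and loess, 305 without the filter, 402 in the fit of the 6 arrays, 1181 with the block and 1062 with slide, and 203 to 491. Probes called in opposite directions moved from 54 to 34, 178 and 126 under the last 3, and 13 to 49. Listed genes called higher (27) and lower (15) became 12 and 4 in the fit of the 6 arrays, 54 and 25 with the block and 41 and 27 with slide, and 5 to 26 and 1 to 10 with 1 array left out.

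Of 1440 comparisons of named genes over 16 alternatives, 246 lost and 9 gained a call, and 2 turned in direction, Med13 (0.33, adjusted p = 0.0377) and Rdh1 (0.40, adjusted p = 0.0236) with normexp and loess. The alternative chosen after seeing the data, which tested 58 probes with a spot marked as an outlier too, called 1214.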

Other observations

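Lists not given their median above were the immediate early genes (13 tested, Myc called lower, median difference -0.07), the unfolded protein response genes (14 tested, Xbp1 called higher, 0.14), the PGC-1 and PPAR regulators (15 tested, -0.14), the magnesium transport genes (-0.08), the glycerol genes (0.12) and the morning and evening arms of the clock (-0.20 and 0.11). Over all genes, 3.92% were called higher and 3.41% lower with H2-water. Among cell type markers, those of leukocytes, stellate cells, blood and endothelium had medians of 0.42, 0.52, 0.21 and -0.08.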
